A study of Arabidopsis thaliana with 24 samples.

Results

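The 49 genes described here were chosen on their measured values: their transcript level differed at least 2.5-fold between time points in Arabidopsis thaliana leaves and, in the shoot apex, was at most 35% higher at its highest than at its lowest time point. For each gene the 2 replicates at each of 6 times were averaged in each tissue. A gene was kept if its mean over the times was 5 FPKM (fragments per kilobase of gene, scaled to the mapped reads of the library) or more in both tissues, its highest leaf time mean was at least 2.5 times its lowest, and its highest apex time mean exceeded its lowest by at most 35%. The leaf and apex ratios below are highest over lowest time mean. Of 33322 genes used, 10450 passed the level minimum, 662 of these passed the leaf ratio and 49 of the 662 also passed the apex ratio. Because those ratios selected the genes, the course over time is given below as a description with no test. Tests were run on what the rule did not use, which is the mean level in leaves against the shoot apex and the difference between replicates.

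The libraries came from wild-type Col-0 seedlings with no treatment named in the labels, although all deposited column names hold the word mock. Seedlings grew for 14 days in cycles of 12 h light and 12 h dark and then in dimmer constant light. True leaves and shoot apices were taken after 90, 94, 98, 102, 106 and 110 h of constant light, 2 libraries per tissue and time, 24 in all. Each came from 6 to 10 seedlings that were frozen and dissected at low temperature, and polyA RNA was read as single-end 50 bp reads. The labels speak of a pair of independent experiments and do not say which replicate belongs to which, so p-values measure the spread between these samples.

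The 6 times span 20 h, less than a full day, so a daily cycle cannot be told apart from another course over this window. In constant conditions the plant circadian clock keeps running: the morning genes CCA1 and LHY and later genes such as PRR9, PRR7 and TOC1 switch each other off in turn. GI is a further clock gene, and many genes outside the loop follow the clock. Clocks in separate organs can differ, and in leaves much of the output touches photosynthesis, plastid lipids, sugar use and growth, while the apex is rich in dividing cells with a high demand for ribosomes and histones.

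The tissues carried their defining markers. Among 12 shoot apex markers, leaf means were 0.128% of the apex mean for STM, 0.116% for KNAT1 and 0.129% for CYP78A5, while LSH3, ANT and LSH4 stood at 7.62%, 3.8% and 3.11%. CLV3 was listed at 0 in all leaf libraries, but it held only 0.222 to 0.972 FPKM in the apex, so its 0 says little. The summed level of 8 mesophyll markers was 21152.7 to 33241.3 FPKM in leaf libraries and 2204.3 to 3284.8 FPKM in apex libraries. Read depth, estimated from the step between low FPKM values, was about 11.0 to 14.5 M reads in leaves and 7.56 to 14.8 M in the apex. The 10 most abundant genes took 9.25% to 16.2% of all FPKM in leaf libraries and 3.68% to 4.95% in apex libraries. The clock genes varied in both tissues: the highest over lowest time mean was 27.7 in leaves and 48.2 in the apex for LHY, 18.5 and 31.2 for CCA1, 25.5 and 8.57 for PRR7, 25.5 and 4.93 for GI, and 6.67 and 2.77 for TOC1. PRR9, which averaged 1.83 FPKM in leaves and 0.374 FPKM in the apex, had ratios of 41.3 and 15.4.

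The 49 genes were 7.4% of the 662 genes that passed the leaf ratio. The other 613 had a median apex ratio of 2. Among the 49, the leaf ratio had a median of 2.69 and reached 7.09, with 14 genes at 3 or more and 3 at 4 or more, against a median of 3.36 in the other 613. The apex ratio had a median of 1.28, with 11 genes at 1.2 or less and 16 above 1.3. Over all 10450 genes at level the median ratio was 1.38 in leaves and 1.23 in the apex. The number of genes was 87 without leaves 102 h replicate 1, 83 without leaves 98 h replicate 1, 78 without leaves 94 h replicate 1 and 77 without leaves 110 h replicate 2. LTP6 (2.503) and J2 (2.505) lay just inside the leaf limit, and AT5G27120 (2.496) and AT5G65920 (2.491) just outside. AT4G15450 (1.349) and AT3G13560 (1.347) lay just inside the apex limit, and OFP15 and PME5 (1.353 each) just outside.

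**Figure D1:**
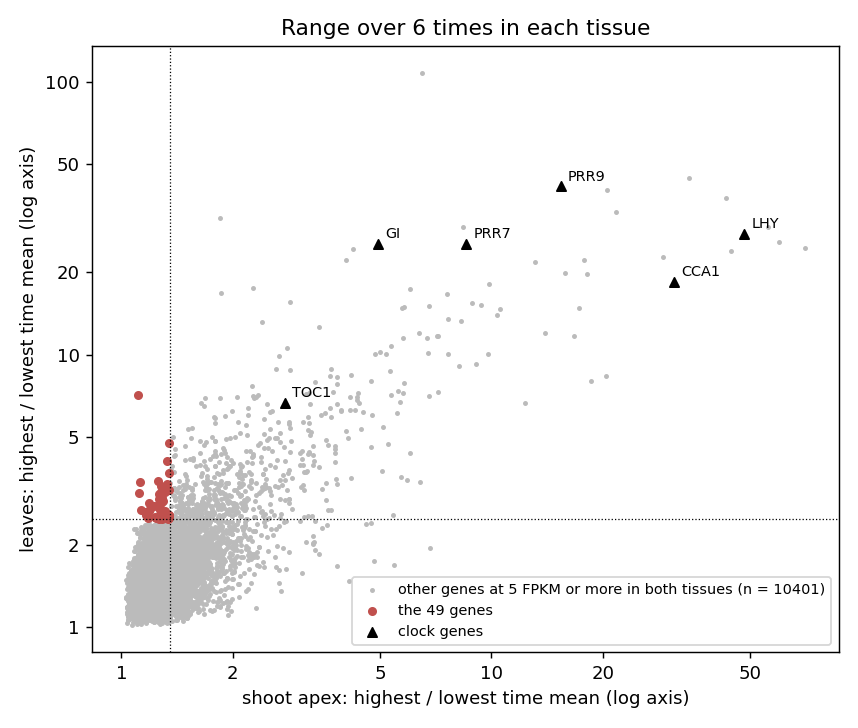
Highest over lowest time mean in leaves (vertical, log axis) against the same ratio in the shoot apex (horizontal, log axis) for genes at 5 FPKM or more in both tissues. The 49 genes (red) lie in the upper left corner bounded by the limits (dotted lines), and the clock genes (triangles, shown at any level) lie to the right of them.

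Of the 49 genes, 9 had their highest leaf mean at 90 h, 12 at 94 h, 2 at 98 h, 5 at 102 h, 9 at 106 h and 12 at 110 h. These were 18.37%, 24.49%, 4.082%, 10.2%, 18.37% and 24.49% of the 49. In all genes at level the shares were 15.98%, 16.53%, 8.852%, 8.278%, 25.17% and 25.2%. The 110 h share was thus near that of genes in general, and the 106 h share was under it. The class sizes were not tested against these shares. The other 613 genes peaked most often at 106 h (30.0%, against 18.4% of the 49), the hour at which the evening gene TOC1 was highest in leaves. The hour of the lowest leaf mean was more uniform. It was 102 h for 25 of the 49 (51.0%), against 21.0% of the other 613 and 35.1% of all genes at level. These 25 include 7 of the 9 genes highest at 90 h, 10 of the 12 highest at 94 h and 8 of the 12 highest at 110 h. The leaf libraries themselves differed at that hour: the 10 most abundant genes took 14.7% and 16.2% of FPKM at 102 h, the highest shares among the leaf libraries, and the summed shoot apex markers in leaves had means of 14.3, 12.7, 10.5, 7.64, 9.13 and 11.0 FPKM from 90 to 110 h. In the apex the same sum was 509.7, 468.8, 413.1, 405.7, 422.6 and 486.1 FPKM. After each library was rescaled to a common median ratio against the geometric mean of each gene, a setting chosen for these counts after seeing the data, the lowest leaf mean was at 102 h in 22 of the 49 (44.9%) and in 17.5% of all genes at level. On that scale 34 of the 49 still met the leaf ratio and 32 met the whole rule. These 32 were 6 of the 9 genes highest at 90 h, 5 of 12 at 94 h, 2 of 2 at 98 h, 5 of 5 at 102 h, 9 of 9 at 106 h and 5 of 12 at 110 h. For most of the 94 h and 110 h classes, passing the rule thus rests on the deposited scale. Over all 49 the rescaled leaf ratio was at least 2.23 and the rescaled apex ratio at most 1.405. The part of the abundant genes or of the apex markers in the courses below was not tested, and in bulk tissue fewer cells of a type and less RNA per cell cannot be told apart.

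**Figure D2:**
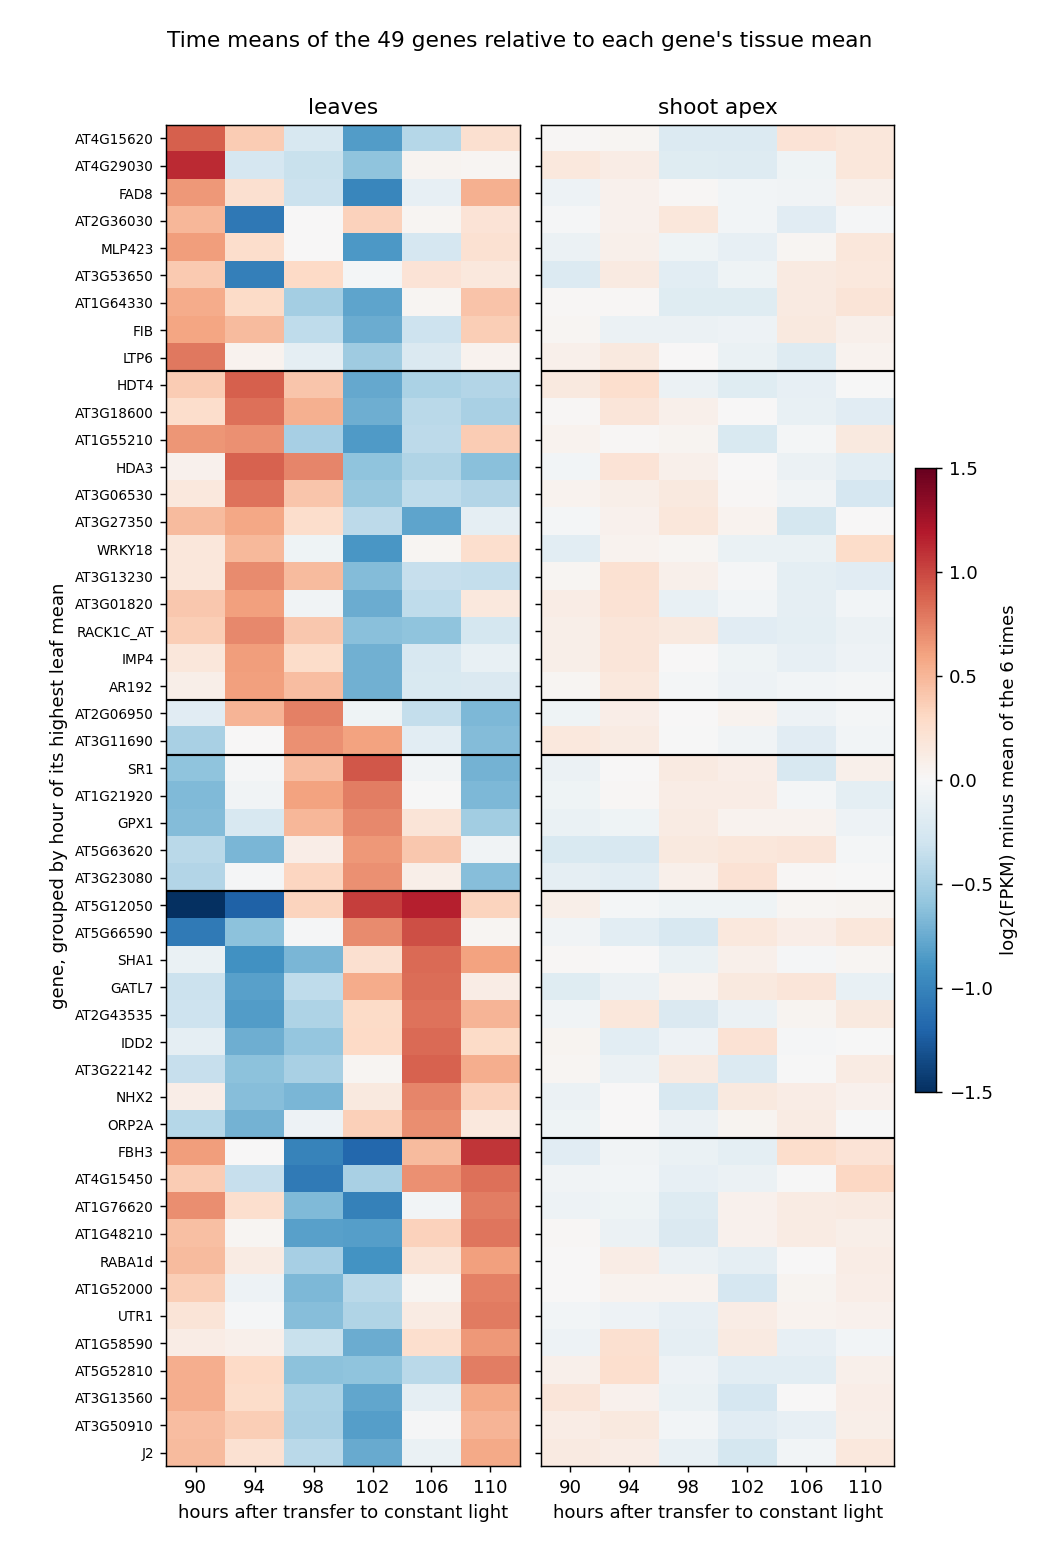
Time means of the 49 genes as log2 FPKM minus the mean of the 6 times, in leaves (left) and shoot apex (right), against hours after transfer to constant light. Rows are grouped by the hour of the highest leaf mean (9, 12, 2, 5, 9 and 12 genes from top to bottom). Leaf rows run from strong red to strong blue, most often with the lowest mean at 102 h, and apex rows stay pale by the rule.

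Promoters were searched for 9 short motifs known from clock, light, stress and ribosomal genes, and 6 promoters are shown because they belong to the 4 genes with the largest leaf ratio and to 2 genes whose only match in the printed bases is the evening element or the protein box. They are the 250 bases before the gene start on the gene's own strand (RefSeq TAIR10.1), in lower case with every match of the searched motifs in capitals. AT5G12050, AT5G66590, AT4G15450 and FIB lie on the plus strand, and FBH3 and RACK1C_AT on the minus strand.
AT5G12050 (chr5:3889656-3889905): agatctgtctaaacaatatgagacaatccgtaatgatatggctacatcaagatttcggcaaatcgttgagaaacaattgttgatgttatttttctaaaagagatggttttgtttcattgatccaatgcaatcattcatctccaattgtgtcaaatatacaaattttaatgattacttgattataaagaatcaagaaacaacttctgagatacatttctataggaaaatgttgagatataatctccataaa
FBH3 (chr1:18945813-18946062): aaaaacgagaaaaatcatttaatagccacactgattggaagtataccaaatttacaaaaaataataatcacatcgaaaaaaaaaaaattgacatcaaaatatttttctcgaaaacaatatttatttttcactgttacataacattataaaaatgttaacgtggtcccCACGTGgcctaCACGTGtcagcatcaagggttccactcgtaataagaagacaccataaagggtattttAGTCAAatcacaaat
AT5G66590 (chr5:26573714-26573963): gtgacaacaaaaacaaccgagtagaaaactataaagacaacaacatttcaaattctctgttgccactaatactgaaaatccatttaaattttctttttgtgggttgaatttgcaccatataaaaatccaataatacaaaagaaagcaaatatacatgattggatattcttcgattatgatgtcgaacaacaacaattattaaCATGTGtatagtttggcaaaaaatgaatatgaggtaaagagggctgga
AT4G15450 (chr4:8839006-8839255): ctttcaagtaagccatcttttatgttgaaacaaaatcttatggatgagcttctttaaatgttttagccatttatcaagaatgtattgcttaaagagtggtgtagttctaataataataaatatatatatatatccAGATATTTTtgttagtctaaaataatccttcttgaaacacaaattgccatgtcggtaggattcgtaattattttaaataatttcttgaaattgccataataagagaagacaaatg
FIB (chr4:1931633-1931882): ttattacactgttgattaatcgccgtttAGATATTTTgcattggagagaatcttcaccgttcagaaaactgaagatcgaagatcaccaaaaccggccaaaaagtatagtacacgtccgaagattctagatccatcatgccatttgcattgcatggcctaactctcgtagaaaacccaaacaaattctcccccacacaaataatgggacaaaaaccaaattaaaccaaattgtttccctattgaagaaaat
RACK1C_AT (chr3:6212552-6212801): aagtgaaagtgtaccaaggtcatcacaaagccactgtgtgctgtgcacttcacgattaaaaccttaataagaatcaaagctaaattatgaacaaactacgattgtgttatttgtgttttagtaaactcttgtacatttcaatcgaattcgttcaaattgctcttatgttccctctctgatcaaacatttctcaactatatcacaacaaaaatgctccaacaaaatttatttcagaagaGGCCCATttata
The capitals mark a G-box (CACGTG) at 2 places and a W-box (TTGACT, here on the other strand) in FBH3, CACATG on the other strand in AT5G66590, the evening element (AAAATATCT) on the other strand in AT4G15450 and FIB, and the protein box (ATGGGCC) on the other strand in RACK1C_AT. AT5G12050, the gene with the largest leaf ratio, held none of the searched motifs.

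Counted on both strands over 250 bases before and 50 after the gene start, the evening element was in 4 of 49 promoters (8.16%), in 3.11% of all promoters of genes at level and in 11.2% of those of the other genes that varied in leaves. Among genes highest in leaves at 106 h it was in 1 of 9 of the 49 (GATL7) and in 23.1% of the others. The CCA1 binding site AAAAATCT was in 6.12% of the 49 promoters and 8.39% of all at level, the G-box in 10.2% and 9.25%, CACATG in 12.2% and 12.3%, the core GCCGAC of the cold-response element in 4.08% and 3.82%, and the W-boxes TTGACC and TTGACT in 14.3% and 13.9%, and 24.5% and 20.9%. The telo-box AAACCCT, common before ribosomal and cell cycle genes, was in 12.2% of the 49, 9.57% of all at level and 3.78% of the other genes that varied in leaves, and the protein box in 6.12%, 12.3% and 4.44%. A telo-box or a protein box was in 9 of the 49 promoters (18.4%), close to the 19.8% of all at level and above the 7.9% of the other genes that varied in leaves. None of the motifs contains another. A match is a run of letters in a window and was not tested for binding.

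The genes highest in leaves at 106 h include the one with the largest leaf ratio. AT5G12050 (chr5:3889906-3891514), annotated as a rho GTPase-activating protein, held 5.09, 5.95, 18.3, 29.4, 43.6 and 20.6 FPKM from 90 to 110 h in replicate 1 leaves and 5.78, 8.88, 24.9, 40.8, 33.5 and 22.7 FPKM in replicate 2 leaves. Its 12 apex libraries held 6.69 to 8.54 (median 7.51) FPKM. Both leaf libraries at 90 h lay below the apex range, and all leaf libraries from 98 to 110 h lay above it, for a leaf ratio of 7.09 and an apex ratio of 1.11. AT5G66590, a secreted protein of the CAP family to which pathogenesis-related protein 1 belongs, had a similar leaf course. It held 7.28, 7.62, 18.3, 32.7, 35.8 and 18.0 FPKM in replicate 1 leaves and 8.54, 13.9, 14.2, 21.3, 28.8 and 15.6 FPKM in replicate 2 leaves, against 10.5 to 15.5 (median 13.3) FPKM in the apex. The apex libraries sat between the low and high leaf libraries, with ratios of 4.08 in leaves and 1.33 in the apex.

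The other genes highest at 106 h included wall, transport and regulatory genes. SHA1, a RING finger gene named for its role in keeping the shoot meristem active, held 19.8, 11.9, 13.2, 28.7, 42.5 and 38.7 FPKM in replicate 1 leaves and 22.5, 12.2, 15.0, 24.8, 39.5 and 30.5 FPKM in replicate 2 leaves, while its apex libraries spanned 9.23 to 11.2 (median 10.5) FPKM. All 12 leaf libraries lay above all 12 apex libraries, at every hour. GATL7, a galacturonosyltransferase-like gene of the family that includes pectin and xylan synthesis enzymes, had leaf time means of 13.1 FPKM at 94 h and 41.1 FPKM at 106 h, against 13.4 to 17.1 FPKM in the apex. IDD2, a zinc finger transcription factor of the INDETERMINATE domain family, held 5.79, 4.30, 4.65, 9.20, 14.2 and 9.28 FPKM in replicate 1 leaves and 8.19, 4.96, 5.62, 9.65, 13.4 and 9.46 FPKM in replicate 2 leaves, against 20.6 to 27.3 (median 22.9) FPKM in the apex. Here every apex library lay above every leaf library. AT2G43535, a small knottin-fold peptide gene, AT3G22142, of the lipid transfer and seed albumin family, NHX2, a vacuolar sodium and potassium proton exchanger, and ORP2A, an oxysterol-binding protein relative, had leaf ratios of 3.13, 2.82, 2.67 and 2.66. For NHX2 the leaf replicates disagreed at 106 h, at 5.3 FPKM in replicate 1 and 12.1 FPKM in replicate 2. In replicate 1 alone NHX2 was highest in leaves at 110 h, with a leaf ratio of 1.97. Of the 9 genes, 6 were lowest in leaves at 94 h.

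The class highest at 110 h was led by FBH3 (chr1:18943447-18945812), a basic helix-loop-helix factor also called AKS1 and known from flowering time control and stomatal opening. It held 15.1, 11.3, 4.93, 4.69, 6.51 and 21.7 FPKM from 90 to 110 h in replicate 1 leaves and 18.1, 10.5, 5.86, 4.82, 23.5 and 23.6 FPKM in replicate 2 leaves. The apex libraries held 13.7, 15.2, 15.5, 14.3, 14.3 and 18.9 FPKM in replicate 1 and 13.8, 14.6, 13.4, 13.6, 22.7 and 16.7 FPKM in replicate 2. At 106 h the replicates disagreed in both tissues, 6.51 and 23.5 FPKM in leaves and 14.3 and 22.7 FPKM in the apex, and in replicate 2 alone the apex ratio was 1.69, above the limit. AT4G15450, annotated as senescence and dehydration associated, held 8.70, 5.01, 3.30, 4.10, 8.20 and 11.5 FPKM in replicate 1 leaves and 10.1, 6.42, 3.64, 6.23, 15.1 and 14.2 FPKM in replicate 2 leaves, against 15.1 to 22.9 (median 17.0) FPKM in the apex. Leaf values came near the lowest apex library only in replicate 2 at 106 and 110 h.

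AT1G76620 (a DUF547 protein), AT1G48210 (a protein kinase), RABA1d (a small GTPase of membrane traffic) and AT1G52000 (a mannose-binding lectin relative) followed, with leaf ratios of 3.44, 3.09, 2.85 and 2.69. RABA1d had leaf time means of 3.8 FPKM at 102 h and 10.8 FPKM at 110 h, against 15.7 to 18.7 FPKM in the apex. UTR1, a nucleotide sugar transporter of the endoplasmic reticulum, J2, a DnaJ co-chaperone, AT5G52810, an NAD(P)-binding protein, AT3G13560, a glycosyl hydrolase of family 17, AT3G50910, annotated as a netrin receptor relative, and the noncoding RNA AT1G58590 completed the class with leaf ratios of 2.505 to 2.67. All 12 genes of the class were lowest in leaves at 98 or 102 h.

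The genes highest at 90 h included plastid lipid genes and genes with far more transcript in the apex. FAD8 (chr5:1664040-1666531), a plastid desaturase that makes trienoic fatty acids, held 39.8, 32.0, 21.4, 13.3, 22.1 and 36.1 FPKM in replicate 1 leaves and 49.7, 35.2, 24.2, 15.5, 30.0 and 46.0 FPKM in replicate 2 leaves, against 9.49 to 12.3 (median 10.7) FPKM in the apex. Both leaf replicates were lower at each hour up to 102 h and higher again after it, and every leaf library stayed above every apex library. FIB (chr4:1931883-1933950), the fibrillin of plastoglobules, the lipid droplets of plastids, held 37.8 to 124 (median 77.1) FPKM in leaves, against 7.71 to 11.4 (median 9.52) FPKM in the apex.

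LTP6, a lipid transfer protein, and AT4G29030, a putative membrane lipoprotein, were the other way round. LTP6 (chr3:2664069-2664888) held 18.8, 10.2, 9.53, 4.43, 5.69 and 8.22 FPKM in replicate 1 leaves and 24.4, 15.7, 13.2, 12.8, 15.8 and 17.8 FPKM in replicate 2 leaves, against 669 to 962 (median 750.5) FPKM in the apex. AT4G29030 held 15.9, 4.29, 5.06, 2.11, 3.69 and 4.60 FPKM in replicate 1 leaves and 29.1, 13.1, 11.4, 11.6, 17.6 and 16.5 FPKM in replicate 2 leaves, against 489.7 to 730.5 (median 579.7) FPKM in the apex. Their leaf means were 1.66% and 1.92% of their apex means, shares that lie between those of the apex markers GIF1 (1.07%) and CUC1 (2.79%). What part apex tissue had in these leaf values was not tested.

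MLP423, a major latex protein relative, had leaf time means of 26.6 FPKM at 102 h and 74.2 FPKM at 90 h, against 245.6 to 300.2 FPKM in the apex. AT4G15620, a CASP-like membrane protein, had a leaf ratio of 3.34, and AT1G64330, a myosin heavy chain-like protein, 2.55. AT2G36030, an uncharacterized gene of 213 exonic bases, and the histone gene AT3G53650 were lowest in leaves at 94 h, not at 102 h like the other 7 genes of the class. AT3G53650 held 11.1, 4.52, 10.5, 7.16, 8.02 and 11.0 FPKM in replicate 1 leaves and 11.5, 3.93, 10.6, 9.64, 11.8 and 8.19 FPKM in replicate 2 leaves, against 17.8 to 27.6 (median 20.6) FPKM in the apex. The 94 h value was the lowest in both leaf replicates. For AT2G36030 the lowest leaf time mean corresponds to an estimated 6.11 reads in a library of median depth, so its leaf ratio of 2.97 is imprecise. Over the 49 genes that estimate had a median of 155 reads, and 5 genes were under 50.

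**Figure D3:**
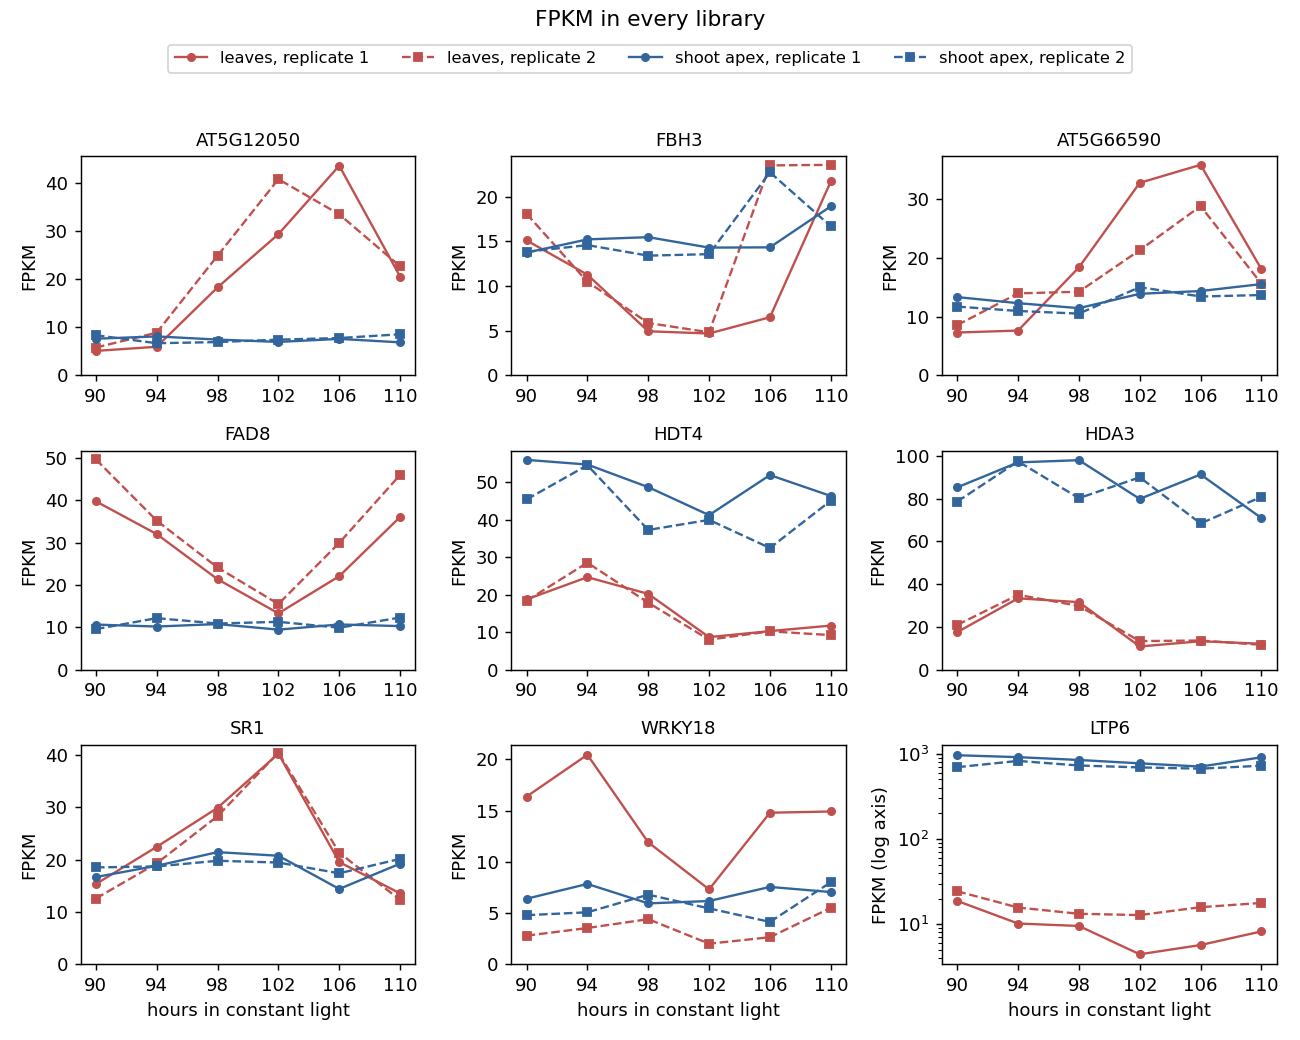
FPKM in every library of 9 of the genes against hours in constant light, leaves in red and shoot apex in blue, replicate 1 as circles with solid lines and replicate 2 as squares with dashed lines, LTP6 on a log axis. AT5G12050 spans 5.09 to 43.6 FPKM in leaves and 6.69 to 8.54 FPKM in the apex, and in WRKY18 the leaf replicates lie apart at every hour.

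The class highest at 94 h held several genes of chromatin, RNA and ribosome biology. HDT4 and HDA3 (also HDT1 or HD2A) are both plant-specific HD2 histone deacetylases, a family known from the nucleolus. HDA3 (chr3:16297656-16299876) held 17.6, 33.4, 31.6, 10.9, 13.3 and 12.2 FPKM in replicate 1 leaves and 21.0, 35.0, 29.9, 13.4, 13.7 and 11.7 FPKM in replicate 2 leaves, against 68.4 to 98.0 (median 83.0) FPKM in the apex. HDT4 (chr2:11861806-11863908) held 18.8, 24.7, 20.2, 8.71, 10.3 and 11.8 FPKM in replicate 1 leaves and 18.4, 28.6, 17.9, 8.03, 10.3 and 9.26 FPKM in replicate 2 leaves, against 32.5 to 56.0 (median 45.9) FPKM in the apex. In both genes leaf values were lower at 102 h than at 98 h in each replicate and were still low at 106 and 110 h, and all 12 leaf libraries lay below all 12 apex libraries.

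IMP4 encodes a protein of ribosomal RNA processing, RACK1C_AT a scaffold protein of the small ribosomal subunit, and AR192 (MGE2) a mitochondrial GrpE co-chaperone. RACK1C_AT held 60.6, 79.3, 61.1, 29.4, 30.2 and 41.6 FPKM in replicate 1 leaves and 66.4, 83.8, 69.2, 34.7, 34.6 and 40.4 FPKM in replicate 2 leaves, against 74.4 to 110.2 (median 98.5) FPKM in the apex. IMP4 had leaf time means of 4.25 FPKM at 102 h and 10.8 FPKM at 94 h, against 17.7 to 21.9 FPKM in the apex. AT3G18600 and AT3G01820, annotated as P-loop nucleoside triphosphatases, AT3G13230, a KH-domain RNA-binding protein, AT3G06530, an ARM repeat protein, AT3G27350, annotated as similar to the chromatin regulator ATRX, and AT1G55210, a dirigent-like protein, had leaf ratios of 2.55 to 2.94. WRKY18, a defence transcription factor, completed the 12.

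Of these 12 genes, 8 also had their highest apex mean at 94 h, within the small apex range that the rule allows. Over all 49, leaf and apex shared the hour of the highest mean in 15 genes and the hour of the lowest mean in 21. No such counts are given for all genes at level, so these shared hours are not shown to be particular to these genes. A list of ribosomal and nucleolar genes holds none of these 12. Of its 13 genes at level, 10 were highest in leaves at 94 h, against 16.5% of all genes at level. The apex limit was met by 11 of the 13, and by 73.8% of all genes at level. All 14 tested genes of the list were lower in leaves, with a median log2 difference of -1.47, where 68.6% of all tested genes were lower. For the 13 at level the leaf ratio had a median of 1.59, under the limit of 2.5. NOP56 had a ratio of 2.24 in leaves and 1.21 in the apex, CBF5 2.06 and 1.17, APUM24 2.26 and 1.14, and FIB2, the fibrillarin gene with the largest leaf ratio of the list, 3.0 and 1.52.

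The genes highest at 98 and 102 h were few. SR1 (CIPK14, chr5:313190-315405), a protein kinase regulated by calcineurin B-like calcium sensors, held 15.3, 22.4, 29.9, 40.3, 19.5 and 13.5 FPKM in replicate 1 leaves and 12.6, 19.3, 28.3, 40.5, 21.3 and 12.3 FPKM in replicate 2 leaves, against 14.4 to 21.4 (median 19.0) FPKM in the apex. Both leaf courses formed a single peak at 102 h, above the apex range at 98 and 102 h and below or within it at 90 and 110 h. GPX1, a chloroplast glutathione peroxidase and the only one of the 49 on any of the 32 lists drawn up for the analysis, held 90.7, 109.5, 193, 244, 152 and 92.9 FPKM in replicate 1 leaves and 99.9, 144, 230.4, 249, 189 and 116 FPKM in replicate 2 leaves, against 23.3 to 31.7 (median 27.7) FPKM in the apex. Of 15 genes at level on its list of organic acid, redox and catalase genes, 3 passed the leaf ratio, and the others of these, APX1 and SAPX, had apex ratios of 1.56 and 1.45.

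AT1G21920 (annotated as related to SET7/9 methyltransferases), AT3G23080 (of the polyketide cyclase and lipid transport family) and AT5G63620 (an alcohol dehydrogenase relative) were also highest at 102 h, with leaf ratios of 2.71, 2.51 and 2.53. AT3G11690, an uncharacterized gene, and AT2G06950, annotated as a pseudogene, were highest at 98 h. AT2G06950 had leaf time means of 4.03 FPKM at 110 h and 10.8 FPKM at 98 h, against 38.1 to 43.1 FPKM in the apex.

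The mean level over all times, which the rule limited only by the 5 FPKM minimum, was lower in leaves than in the apex for most of the 49. With limma on log2(FPKM + 1), 35 genes were lower and 10 higher in leaves at an adjusted p under 0.05, or 71.4% and 20.4%. Among all 19986 genes tested these shares were 68.6% and 21.4%, and among the 10450 at level 64.6% and 24.6%, so the split of the 49 was near that of genes in general. The median log2 difference, leaves minus apex, was -0.75 in the 49, -0.58 in all tested genes and -0.44 in genes at level. The other 613 genes that varied in leaves had a median of 0.16, with 293 higher and 219 lower in leaves. After rescaling, which brought the median of all genes to -0.01, 19 of the 49 were higher and 21 lower in leaves, with a median of -0.12. Of all 19855 genes tested on that scale, 8363 were higher and 8431 lower. The excess of genes lower in leaves was thus seen on the deposited scale and not on the rescaled one.

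The apex mean lay above the highest leaf time mean in 27 genes (55.1%), within the leaf range in 16 and under the lowest leaf time mean in 6. In all genes at level it lay above in 60.4%, within in 18.6% and under in 21.0%, and in the other 613 genes above in 17.1%, within in 57.8% and under in 25.1%. After rescaling, for which these counts were chosen after seeing the data, it lay above in 12 of the 49 (24.5%), within in 25 and under in 12, against 28.2%, 23.2% and 48.6% of all genes at level and 8.48%, 48.9% and 42.6% of the other 613. In the class highest at 94 h, 9 of 12 apex means lay above the leaf range on the deposited scale and 4 after rescaling. On the deposited scale 11 of its genes were lower in leaves and 0 higher by limma, also at an unadjusted p under 0.05, where 64.6% of genes at level were lower. After rescaling 8 were lower and 3 higher (AT1G55210, AT3G27350 and WRKY18). In the class highest at 106 h, 4 of 9 were higher and 3 lower, and after rescaling 6 and 2. In the class highest at 110 h, 1 of 12 was higher and 11 lower, and after rescaling 2 and 4. Over all 19855 genes tested after rescaling, 8363 were higher and 8431 lower.

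**Figure D4:**
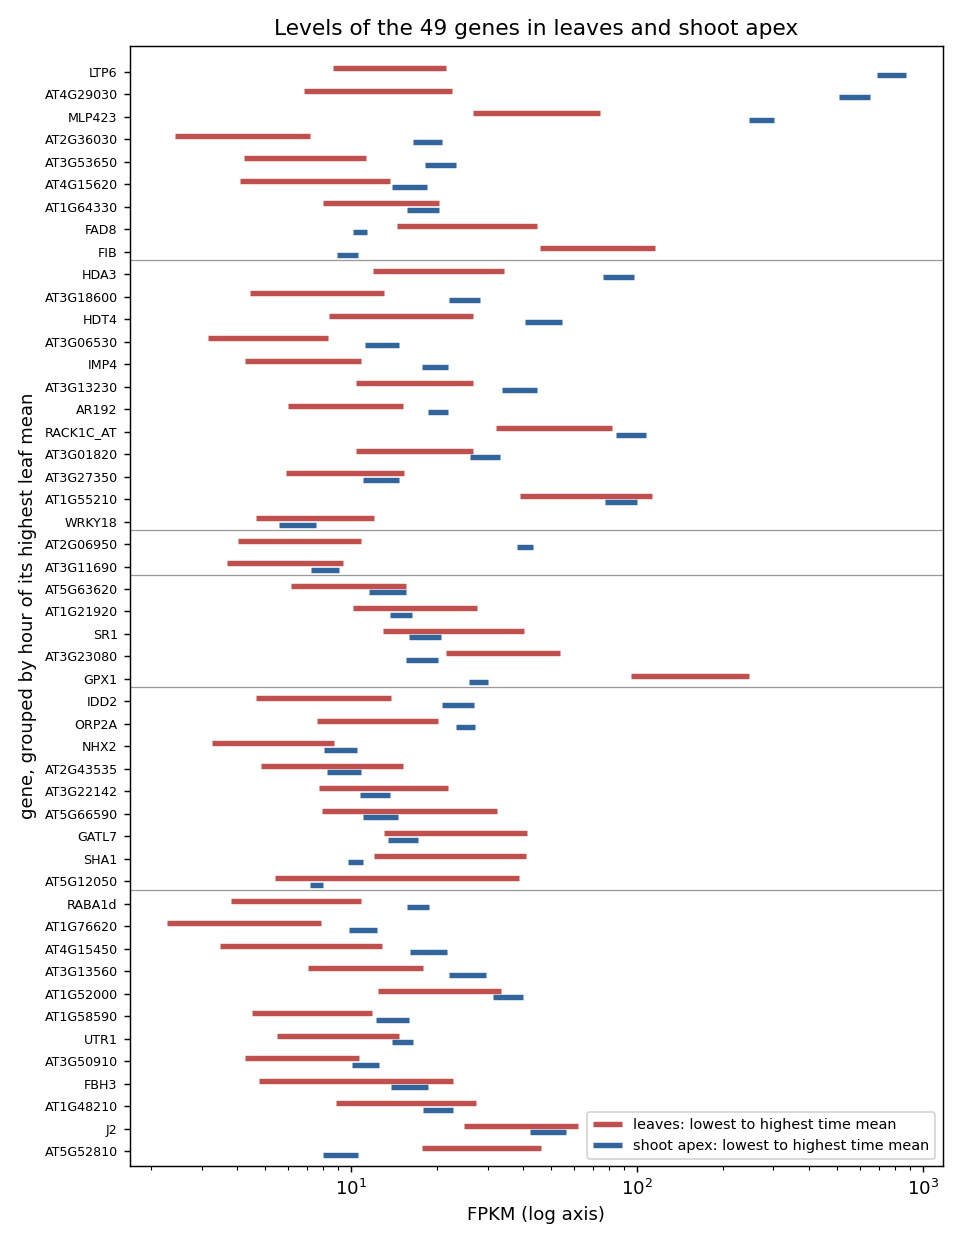
Lowest to highest time mean in leaves (red, upper bar of each pair) and shoot apex (blue, lower bar) for each of the 49 genes, FPKM on a log axis, grouped by the hour of the highest leaf mean from 90 h at the top to 110 h at the bottom. The apex bar of LTP6 lies at 688.6 to 869.4 FPKM against a leaf bar at 8.61 to 21.6 FPKM, and FIB, GPX1 and FAD8 show the opposite order.

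The largest differences toward leaves were FIB at 81.4 ± 29.4 FPKM in leaves and 9.53 ± 0.953 FPKM in the apex (SD, n = 12 each), a log2 difference of 2.88 ± 0.07 (SE), and GPX1 at 159.3 ± 60.1 FPKM in leaves and 27.6 ± 2.23 FPKM in the apex, 2.39 ± 0.06. FAD8, AT5G52810 and AT5G12050 followed at 1.33 ± 0.07, 1.27 ± 0.32 and 1.11 ± 0.08. Limma adjusted p was 1.71e-15 for FIB and 0.00149 for AT5G52810, the weakest of these 5. The tissue fit held no replicate term, although same-numbered libraries within a tissue deviated together. Its p-values and calls thus do not measure the spread between independent experiments. The SDs pool all times and both replicates. Toward the apex, LTP6 differed by -5.93 ± 0.18 and AT4G29030 by -5.87 ± 0.29, followed by AT2G06950 at -2.48 ± 0.10, MLP423 at -2.44 ± 0.11 and HDA3 at -2.13 ± 0.06. The 12 leaf libraries all lay below the 12 apex libraries in 18 genes and all above them in 4, and they overlapped in 27. No such count is given for all genes at level, so the excess of genes below is not shown to be particular to these genes. On the deposited scale 64.6% of genes at level were lower in leaves by limma and 24.6% higher. WRKY18, AT1G21920, AT2G43535 and AT3G22142 did not pass the test.

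The course over time was compared between replicates within each tissue. The rule kept genes with a wide leaf range and a narrow apex range, so a higher correlation and more shared hours in leaves than in the apex follow from the choice of genes and show no difference between the tissues. Over the 6 times, the correlation of log2(FPKM + 1) between the replicates had a median of 0.93 in leaves (0.43 to 0.99) and 0.34 in the apex (-0.57 to 0.90). This is a description over points that share library depth. Both leaf replicates were highest at the same hour in 36 of 49 genes and lowest at the same hour in 39, and the peak and trough libraries did not overlap in 47. The rule required the means at those hours to differ at least 2.5-fold, so the lack of overlap also follows largely from the choice of genes. In the apex the replicates shared the highest hour in 14 genes and the lowest in 15. Apex ratios were larger within single replicates. In replicate 1 alone 28 of the 49 met the apex limit, in replicate 2 alone 22, and in each alone 15, with values up to 1.70 and 1.93. In leaves 28 of the 49 reached 2.5 in each replicate alone. Both limits were met in each replicate alone by 11 genes.

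When the rule was applied to 1 replicate and read in the other, the leaf range held for part of the genes. Replicate 1 alone chose 71 genes, and at their own peak and trough hours 24 of them (33.8%) had a ratio of at least 2.5 in replicate 2 leaves, against 5.71% of all genes at level treated the same way. Their median was 2.08, and 59 reached 1.5. Replicate 2 alone chose 48 genes, of which 18 (37.5%) reached 2.5 in replicate 1 leaves, against 5.14% of all. Both shares were under those of genes that passed the leaf ratio in the choosing replicate at any apex ratio. Of those, 59.9% reached 2.5 in replicate 2 and 54.6% in replicate 1. Apex flatness did not carry over beyond the level of genes in general: 42.2% of the 71 met the apex limit in replicate 2, against 57.3% of all genes at level, and 58.3% of the 48 in replicate 1, against 69.9%. Of genes that passed the leaf ratio in the choosing replicate at any apex ratio, 6.07% and 11.9% were as flat in the other replicate.

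The replicates also differed in level. The tests set the 6 hours of replicate 1 against those of replicate 2. Same-numbered libraries within a tissue deviated together, so the p-values do not measure the spread between independent experiments. In leaves 13 of the 49 were higher in replicate 1 and 11 higher in replicate 2 (limma, adjusted p under 0.05), or 26.5% and 22.4%, against 20.1% and 10.6% of all genes tested. In the apex 5 were higher in replicate 1 and 0 in replicate 2 (3 at an unadjusted p under 0.05), or 10.2% and 0%, against 15.6% and 5.02% of all. WRKY18 had the largest leaf difference. It held 16.4, 20.4, 11.9, 7.31, 14.8 and 14.9 FPKM in replicate 1 leaves and 2.79, 3.54, 4.40, 2.00, 2.64 and 5.50 FPKM in replicate 2 leaves, against 4.13 to 8.00 (median 6.28) FPKM in the apex. Every replicate 1 library was above every replicate 2 library in leaves, by 1.76 ± 0.15 on the log2 scale (limma, adjusted p = 1.3e-06), and its leaf course correlated at 0.43 between replicates. Its highest hour was 94 h in replicate 1 and 110 h in replicate 2.

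AT5G52810 held 60.7, 56.7, 28.8, 27.4, 29.4 and 64.8 FPKM in replicate 1 leaves and 18.5, 10.1, 6.68, 8.23, 11.5 and 27.7 FPKM in replicate 2 leaves, against 6.97 to 12.6 (median 8.46) FPKM in the apex. Both replicates were highest at 110 h, but the level differed by 1.68 ± 0.12, and replicate 2 overlapped the apex range. UTR1 and J2 differed by 0.995 ± 0.09 and 0.77 ± 0.04, with the same highest and lowest hour in both replicates. The other way, AT4G29030 differed by -1.49 ± 0.13, AT2G36030 by -1.05 ± 0.17, LTP6 by -0.85 ± 0.12 and AT2G06950 by -0.46 ± 0.07. All 4 of these were lower in leaves than in the apex, and the summed apex markers in leaves ranged from 5.63 to 15.6 FPKM over the libraries, a range whose part in these differences was not tested. The replicate difference itself differed between leaves and apex in 18 of the 49 (36.7%), against 22.5% of all genes.

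**Figure D5:**
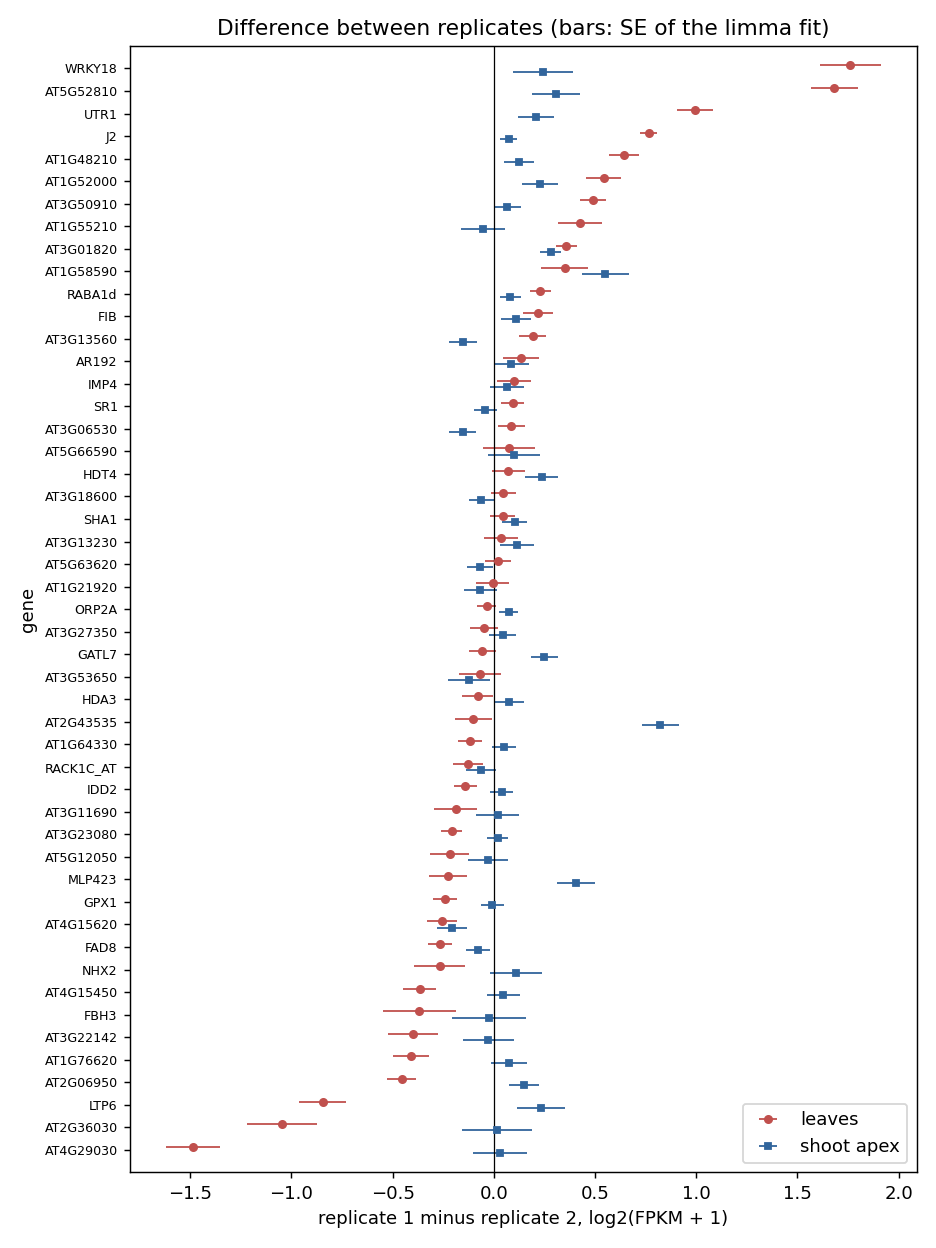
Replicate 1 minus replicate 2 in log2(FPKM + 1) for each of the 49 genes in leaves (red circles) and shoot apex (blue squares), with the SE of the limma fit as bars. Leaf values run from -1.49 (AT4G29030) to 1.76 (WRKY18), and apex values lie between -0.20 and 0.82 (AT2G43535).

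By position, 17 of the 49 genes lay on chromosome 3 (20.2% of genes at level do), 10 on chromosome 1, 8 each on chromosomes 4 and 5 and 6 on chromosome 2. RefSeq lists 47 as protein coding, 1 as a pseudogene and 1 as noncoding RNA. The median exonic length was 1710 bases, against 1793.5 for genes at level. The lists were chosen with earlier results of these data known. None of the lists for light harvesting, starch breakdown, cold response, salicylate defence, flavonoids or photoperiod, in which 12 of 17, 8 of 11, 7 of 9, 4 of 7, 6 of 8 and 7 of 10 genes at level passed the leaf ratio, held one of the 49. The 49 were 0.47% of all genes at level and 7.4% of those that passed the leaf ratio. Absence from such short lists is thus not shown to be particular to these functions. Over all 32 lists 644 of 681 symbols were matched to the files.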

How the data were processed

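The deposited table holds FPKM values that the authors made from single-end reads, 33323 genes by 24 libraries. The tools given per the submitters' processing notes are STAR (2.5.0c) and HOMER, with the TAIR10 build, and neither the gene lengths used nor the treatment of reads shared between gene copies is given in the sources used here. Reads shared with a near-identical copy could therefore sit in either gene. AT1G73170, which has a text cell, was left out. FPKM is relative to each library's total, so a few abundant transcripts can lower all others. Read depth was estimated from the step between low FPKM values and is rough.

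A gene was tested if 2 or more libraries reached 1 FPKM. The test was limma 3.58.1 under R 4.3.3 on log2(FPKM + 1), using trended empirical Bayes and 1 mean per tissue and time. Log2 differences understate the change of low genes. P-values were adjusted by Benjamini-Hochberg over all 19986 genes, with a threshold of 0.05. The replicate differences used 1 replicate term per tissue, and their difference between tissues came from the same fit. The fits were also run on simulated data in which the noise of each library was independent. Such data lack the deviation that same-numbered libraries share here, so they do not test the p-values against it. Python 3.11.15, pandas 2.3.3, numpy 2.4.6 and matplotlib 3.10.9 were used for tables and figures.

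The members, gene lists and tests were chosen with earlier results of these data known. Genes named were, per hour of the highest leaf mean, the 6 with the largest leaf ratio, with those on a list, the 5 largest tissue and the 4 largest leaf replicate differences in each direction, the 2 genes nearest each ratio limit, and 6 clock genes as a reference. The remaining members are named so that each is accounted for, as are the genes of the ribosomal list with leaf ratios above 2. Coordinates, symbols and promoters are from RefSeq TAIR10.1, in which all 49 genes were matched by locus. Alternatives were other scaling, pseudocount, filters, limits, empirical Bayes settings, replicate terms and leaving out libraries.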

Additional observations from a re-analysis of the deposited data

Results flagged for a closer look

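The replicate difference (replicate 1 minus replicate 2, log2) was not the same in leaves as in the shoot apex for 18 of the 49 genes, by the limma test of the difference itself with Benjamini-Hochberg adjustment. The values here are the leaf difference minus the apex difference. It was negative, meaning relatively lower in replicate 1 leaves, for AT4G29030 (-1.52), LTP6 (-1.08), AT2G36030 (-1.06), AT2G43535 (-0.925), MLP423 (-0.632), AT2G06950 (-0.604), AT1G76620 (-0.484), AT4G15450 (-0.412), GATL7 (-0.306) and AT3G23080 (-0.227). It was positive for WRKY18 (1.52), AT5G52810 (1.38), UTR1 (0.785), J2 (0.692), AT1G48210 (0.52), AT1G55210 (0.479), AT3G50910 (0.424) and AT3G13560 (0.344). Adjusted p was lowest for J2 (1.69e-05) and highest for AT3G23080 (0.0427). In AT2G43535, MLP423 and GATL7 the leaf difference alone did not pass the test (-0.10, -0.23 and -0.06) and the apex difference did (0.82, 0.41 and 0.25). The 2 differences had opposite signs in 12 of the 18.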

How the results depend on the processing

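The number of genes chosen depended on the limits: 300 at a leaf ratio of at least 2 and 14 at 3, 14 at an apex excess of at most 25% and 120 at 50%, and 102 at a level of at least 1 FPKM and 28 at 10 FPKM. Rescaling chose 46 genes, 32 of them shared, with 15 of the 49 under the leaf ratio and 4 over the apex limit. Replicate 2 alone chose 48 (19 shared) and replicate 1 alone 71 (18 shared). Without 1 library the number was 34 to 87, and it passed 1.5 times the reported one without leaves 94 h replicate 1 (78), leaves 98 h replicate 1 (83), leaves 102 h replicate 1 (87) and leaves 110 h replicate 2 (77).

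Of the 49, after rescaling 19 were higher and 21 lower in leaves, against 8363 and 8431 of all 19855 genes tested. In the apex 3 of the 49 were then higher in replicate 2, against 1978 of all. The tissue difference changed sign after rescaling in AT1G48210 (0.23), FBH3 (0.14), AT1G55210 (0.31), AT1G64330 (0.31), AT3G11690 (0.17), AT3G27350 (0.31), AT3G50910 (0.069), J2 (0.36) and AT5G63620 (0.22), and without replicate 2 in J2 (0.029, against -0.66 without replicate 1). The cause was not tested. Without 1 library, 10 were higher and 34 to 35 lower in leaves, 10 to 12 and 9 to 12 were higher in replicate 1 and 2 in leaves, and 4 to 6 and 0 to 1 in the apex.

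Same-numbered leaf and apex libraries of a time deviated together with correlations of 0.05 to 0.32 (6 times, median 0.20), not all above 0.1. The main fit did not pair them. Whether they share more than a number across tissues cannot be told from these values. Within a tissue, same-numbered libraries of different times deviated together, with correlations of 0.55 to 0.76 in leaves and 0.16 to 0.44 in the apex (15 pairs each), which is the series that the block within each tissue takes up. With the replicate block 10 were higher and 35 lower, and likewise with the block within each tissue, which was chosen after seeing the data.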
